A study of Mus musculus with 2 samples.

Results

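The cytosolic ribosomal protein genes of the mouse limb were taken as the rows of both gene tables whose Ensembl identifier maps to a protein-coding gene named as a large-subunit (Rpl, Rplp) or small-subunit (Rps, Rpsa) protein. Rps6k kinases and predicted Gm genes were left out. The rule found 84 genes among 43346 annotated gene rows, of which 21474 are protein-coding. They comprise 31 canonical small-subunit genes, 46 canonical large-subunit genes and 7 paralogues, which are Rpl3l, Rpl7l1, Rpl10l, Rpl22l1, Rpl36al, Rpl39l and Rps27l. Genes such as Fau and Rack1 also encode proteins of the ribosome, but their names fall outside the rule.

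Total RNA of limbs of B6NCrl mouse embryos at embryonic day 14.5 was sequenced in 2 libraries, biological replicates 1 and 2 of a single group. Each sample is described as 4 limbs from a pup, collected on a different day, with the sex given as pooled and with the same donor, pup and pregnancy numbers for both. No genetic change or treatment is named. No conditions can be compared within 1 group, so values are given per library or as mean ± SD. An exact two-sided sign-flip test over 2 libraries cannot go below p = 0.5.

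Cytosolic ribosomes translate nuclear-encoded messages. The small subunit decodes the message, and the large subunit joins amino acids into protein. Cells make the proteins of both subunits in matched amounts, and many of their messages begin with a terminal oligopyrimidine motif (TOP), a C followed by a run of pyrimidines through which their translation responds to growth signals. Ribosomal protein messages are also the source of many processed pseudogenes, which are copies of spliced messages inserted elsewhere in the genome.

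Such copies bear on where reads of these genes are counted, so the coding sequence of Rpl5 and that of its closest copy are shown first. Rpl5 binds 5S ribosomal RNA and, with Rpl11, the p53 regulator Mdm2. The gene lies at chr5:107900502-107909005 on the plus strand of GRCm38, the assembly that mm10 names, and the transcribed processed pseudogene Gm15500 at chr7:114705217-114706235 on the minus strand. The first 90 of 894 coding bases read as follows, from the A of the start codon, and a capital would mark a base of Gm15500 that differs from Rpl5.
Rpl5: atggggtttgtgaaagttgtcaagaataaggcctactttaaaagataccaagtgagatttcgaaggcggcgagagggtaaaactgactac
Gm15500: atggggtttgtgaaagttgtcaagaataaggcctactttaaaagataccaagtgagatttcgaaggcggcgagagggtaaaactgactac
There is no capital, and over all 894 coding bases the number of differing bases was 0.

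Rps27 has a copy of the same kind that is annotated as protein-coding, Rps27rt, and a diverged paralogue, Rps27l, whose transcription is known to respond to p53. Rps27 lies at chr3:90212522-90213651 on the minus strand, Rps27rt at chr9:114982366-114982739 on the minus strand and Rps27l at chr9:66946086-66949516 on the plus strand. The first 120 of 255 coding bases are shown with the bases that differ from Rps27 in capitals.
Rps27: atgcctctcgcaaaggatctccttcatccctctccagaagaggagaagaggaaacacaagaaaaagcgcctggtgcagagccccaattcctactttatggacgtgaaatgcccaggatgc
Rps27rt: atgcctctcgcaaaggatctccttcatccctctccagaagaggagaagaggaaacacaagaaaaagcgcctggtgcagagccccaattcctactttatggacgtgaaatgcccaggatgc
Rps27l: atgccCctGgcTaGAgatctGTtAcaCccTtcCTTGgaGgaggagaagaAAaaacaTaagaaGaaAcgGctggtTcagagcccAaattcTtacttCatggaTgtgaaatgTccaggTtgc
Rps27rt differs from Rps27 at 0 of 255 coding bases. Rps27l differs at 28 of the 120 bases shown.

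The 84 genes together held 75901 TPM in replicate 1 and 72186 in replicate 2. TPM is a level scaled to a fixed total and corrected for length, and the sums were 7.59% and 7.22% of the total. In expected counts, the estimated reads of a gene, they held 3.03% and 2.82%, of totals of 34193161 and 32879425. Canonical small-subunit genes summed to 33022 and 31533 TPM and canonical large-subunit genes to 41395 and 39298 TPM. A level of 1 TPM or more in both libraries was reached by 82 of the 84, 100 TPM by 79, 500 TPM by 64 and 1000 TPM by 28. When nuclear protein-coding genes were ranked by mean TPM, members took 38 of the first 100 places.

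The highest member was Rpl41, the gene of the shortest ribosomal protein, at 3794 TPM in replicate 1 and 3519 in replicate 2. Rps19, whose human counterpart is the gene most often mutated in Diamond-Blackfan anaemia, stood at 2896 and 2760.4 TPM. Rpl32 followed at 2003 and 1888 TPM. The ranges of these 3 genes did not overlap. Rps14, known from the loss of its human counterpart in the 5q deletion syndrome, stood at 1910.2 and 1805 TPM, overlapping Rpl32. Rpl37a had 1728 and 1598 TPM. Rps18 had 1698 and 1609 TPM. Rpl36 was at 1699.7 and 1605 TPM, and Rpl7 at 1573 and 1538 TPM. The ranges of Rpl37a, Rps18 and Rpl36 overlapped, and Rpl7 lay below each of them.

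The acidic P-stalk, the part of the large subunit that recruits elongation factors, is made from Rplp0, Rplp1 and Rplp2. Rplp0, the stalk base, was at 1549 and 1521 TPM. Rplp1 was at 1565 and 1438 TPM, a range that holds both values of Rplp0. Rplp2 was lower than both in each library, at 1058 and 1079.6 TPM. Rps27a, which is made as a fusion to ubiquitin, was at 1148 and 1099 TPM. Outside the rule, Rack1 was at 769 and 725 TPM and Fau at 580.4 and 580.7 TPM.

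**Figure D1:**
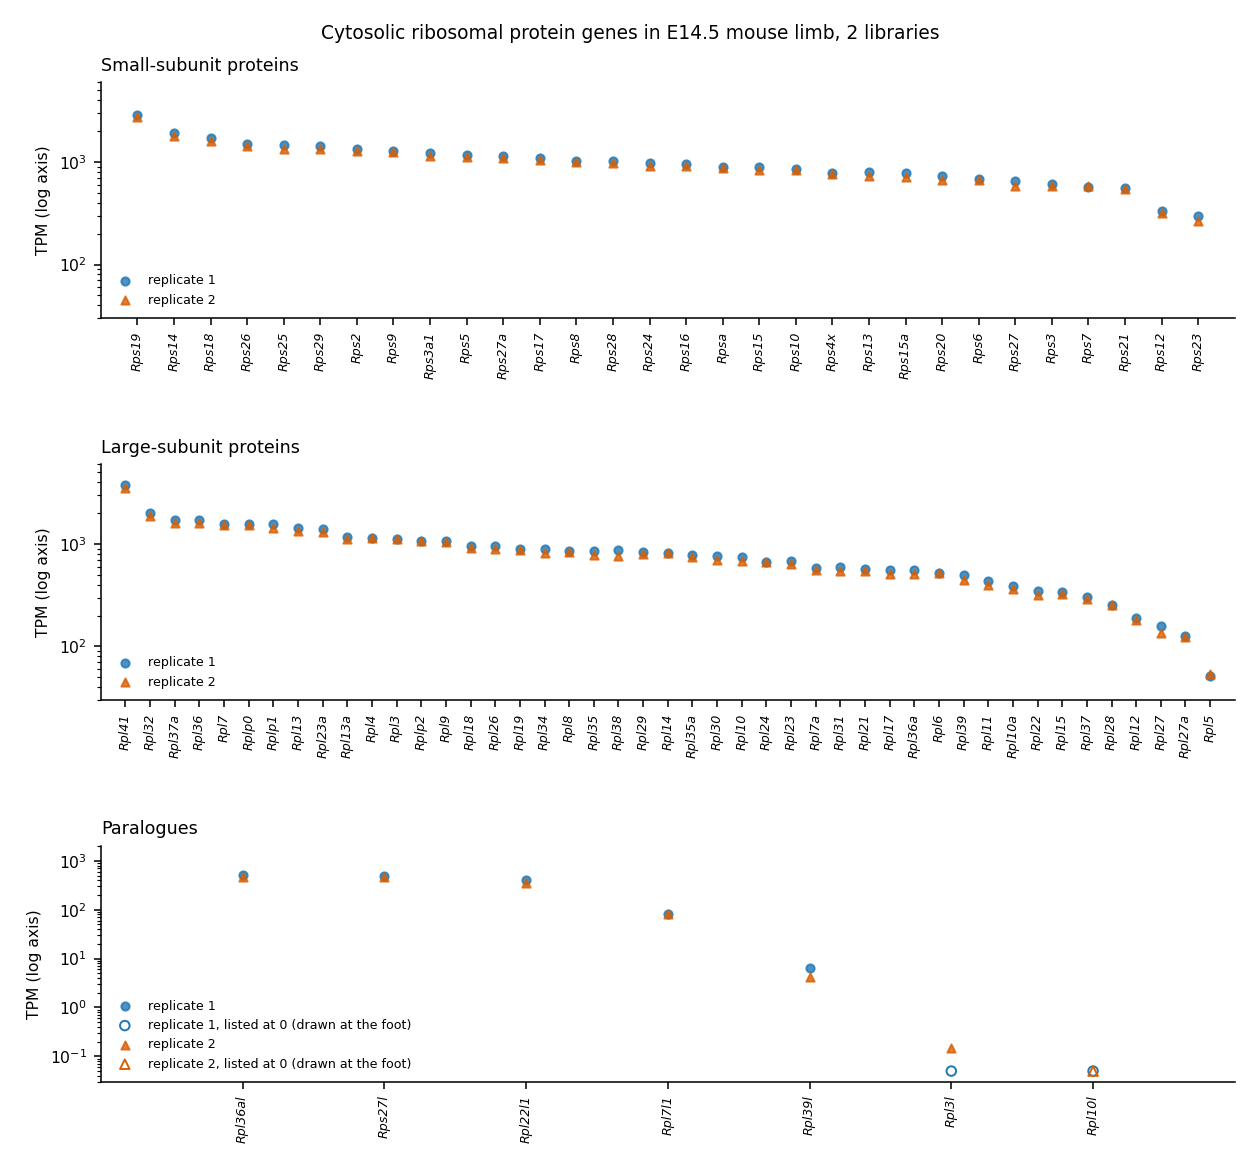
TPM on a log axis for the genes reported, in 3 panels for small-subunit genes, large-subunit genes and paralogues, with circles for replicate 1 and triangles for replicate 2. The libraries nearly coincide for each canonical gene, Rpl41 and Rps19 stand at the top, and Rpl5 at 51.8 and 53.4 TPM stands at the foot of the canonical genes.

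The lowest canonical gene was Rpl5, at 51.8 TPM in replicate 1 and 53.4 in replicate 2. Rpl27a, mutated in the sooty foot ataxia mouse, was at 126 and 124 TPM. Rpl27 was at 157 and 135 TPM. The next was Rpl12 at 190.1 and 182 TPM, whose lower library lay above both libraries of Rpl27. Rpl28, which has no counterpart in budding yeast, had 254 TPM in each library. Rps23, a protein of the decoding centre, was at 296 and 265 TPM. Rpl37 was at 306 and 289 TPM, and its range overlapped that of Rps23. Rps12, known from cell competition in flies, was at 334 and 319.5 TPM. From Rpl41 to Rpl5 the canonical genes spanned 73.3-fold in replicate 1 and 65.9-fold in replicate 2, with a median of 869 and 828 TPM.

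All 8 of these lowest genes had over 50% of their summed TPM on other annotated rows of near-identical sequence. A row was counted as near-identical when it matched a member's coding sequence at 90% identity or more over 50% of its length or more, a definition chosen after the levels had been seen. There were 731 such rows, 711 of them typed as pseudogenes of some kind and 17 as protein-coding. Some of the latter are genes of other names with a matching stretch, whose whole TPM was counted. Examples are Gins1 (33.0 and 35.1 TPM, counted with Rpl41), BC004004 (53.3 and 53.1 TPM, with Rpl21) and Wdr89 (8.61 and 7.73 TPM, with Rplp2). Most were low: 246 were listed at 0 in both libraries and 149 reached 1 TPM in both. A level of 100 TPM in both libraries was reached by 30, and 29 of these were at least 99% identical to their member. Together the rows held 21831 and 20849 TPM, 22.3% and 22.4% of the TPM of members and copies. In expected counts their part was smaller. Members held 3.03% and 2.82% of all counts, and members with these rows 3.59% and 3.34%.

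Rpl5 had 51.8 and 53.4 TPM on its own row, and Gm15500, with the same coding bases as printed above, had 787 and 729 TPM. The rows alike to Rpl5 held 93.8% and 93.2% of the sum. Rpl27 had 157 and 135 TPM against 1135 and 1062 TPM on its copies, of which Gm11518 at chr11:94037218-94037628, identical over all 411 coding bases, had 564 and 519 TPM. Rpl27a had 126 and 124 TPM, and its copy Gm7536 at chr3:24333068-24333511 had 727 and 689 TPM. The copy Rps23-ps1 had 1519 and 1398 TPM beside the 296 and 265 TPM of Rps23. Rps27rt had 1781 and 1659 TPM and Rps27 itself 654 and 590. The length listed for Rps27 in replicate 1, 255 nt, is no longer than its coding sequence, which bears on its TPM. In expected counts Rps27rt had 11097 and 9651 and Rps27 2344 and 1975.

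In each of these pairs the copy was above the gene in both libraries. The same held for Rpl15, at 339 and 324 TPM, and its copy Rpl15-ps3, at 1050.0 and 996 TPM. It held for Rpl37 and Rpl37rt, at 899 and 839 TPM, though not in expected counts, which do not correct for length. There Rpl37 had 5404 and 4761 and Rpl37rt 4104 and 3599. Rpl28-ps1 had 668 and 664 TPM, Gm10275, the copy of Rpl12, 427 and 412 TPM, and Rps12l1, the copy of Rps12, 538 and 496 TPM. Reads that match a gene and its copy equally well cannot be assigned with certainty to either, so neither row alone gives the level of the message. The bounds of the authors' credibility intervals for Rpl5, 47.1 to 55.4 TPM in replicate 1, are narrow beside the 787 TPM listed for Gm15500.

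**Figure D2:**
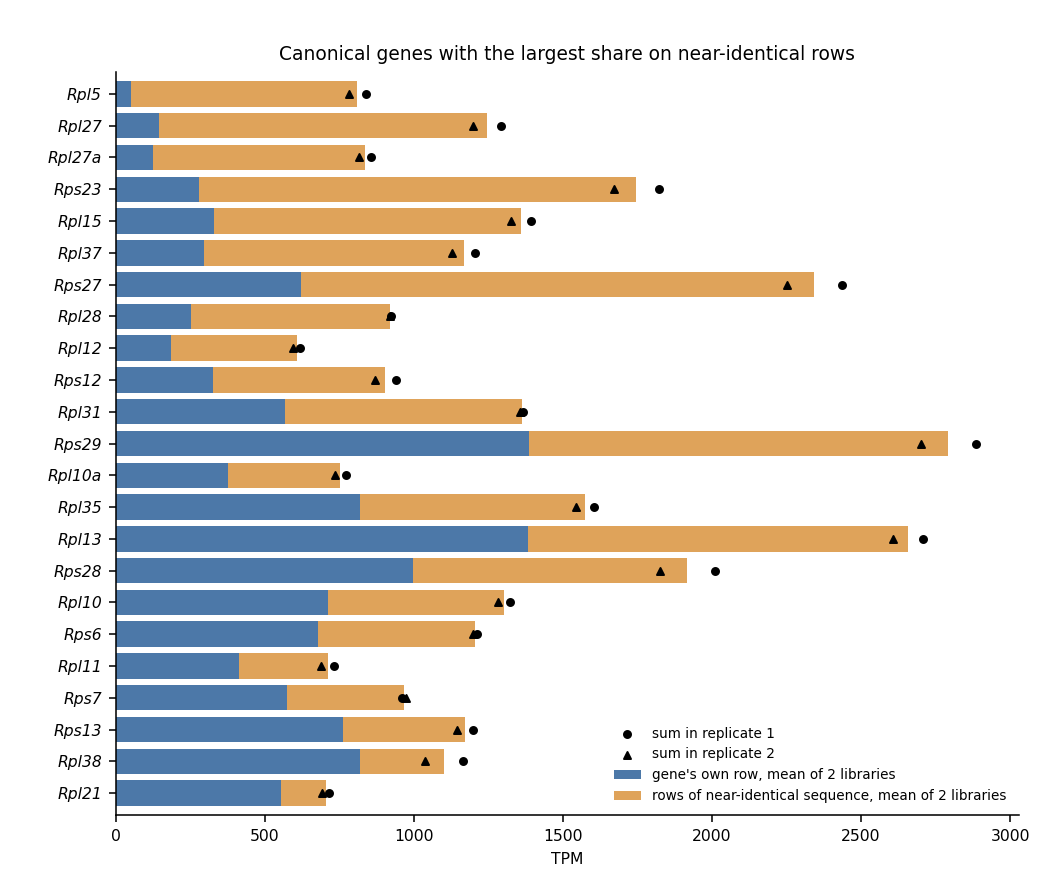
Mean TPM over the 2 libraries of a gene's own row (blue) and of rows of near-identical sequence (orange), stacked, for the canonical genes reported with the largest share on such rows, with the sum in each library as points. Rpl5, Rpl27, Rpl27a and Rps23 hold most of their sum in orange, and Rpl21 at the foot holds 21.2%.

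With the near-identical rows added, the spread among canonical genes was smaller. The highest was 11.8-fold above the lowest in replicate 1 and 12.0-fold in replicate 2. Rpl22 then became the lowest, at 352 and 321 TPM, and Rpl41 remained the highest, at 4159 and 3862 TPM. The SD of log2(TPM + 0.1) over the 77 canonical genes was 1.00 in each library without the copies and 0.66 with them. Rpl5, lowest on its own row, then had 840 and 783 TPM. Over all members, 14 had over 50% of the sum on such rows, 46 had under 5% and 6 had no such row. The 8 highest canonical genes had at most 8.82% there. Across the 77 canonical genes the share on such rows and log2 level had a Pearson r of -0.69 and a Spearman rho of -0.49, given as a description, since the level on the gene's own row is part of both.

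The median canonical small-subunit gene had 969 and 921 TPM and the median large-subunit gene 830 and 777 TPM. The log2 ratio of the large to the small median was -0.23 ± 0.02 (SD, n = 2), and -0.30 with copies added. Genes within a subunit ranged far more widely than these medians differ.

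Of the 7 paralogues, 4 were at 82.5 TPM or more, Rpl39l was at 6.51 and 4.14 TPM, and Rpl3l and Rpl10l were near or at 0. Rpl22l1, which Rpl22 protein is known to repress, was at 402 and 352 TPM, above Rpl22 itself at 350.4 and 320.1 TPM in each library. It held 53.4% and 52.4% of the sum of the pair. Of the TPM of Rpl22l1, 39.3% and 35.6% lay on transcripts typed other than protein_coding, beside 1.9% and 1.3% for Rpl22. On protein_coding transcripts alone the order turned, with Rpl22l1 below Rpl22 in each library. The leading protein_coding transcripts were Rpl22l1-206 at 209 and 193 TPM and Rpl22-201 at 289 and 262 TPM. Rpl36al was at 507 and 458 TPM beside 557 and 505 TPM of the X-linked Rpl36a, which is 47.7% and 47.5% of the sum. Rps27l was at 487 and 458 TPM beside 654 and 590 TPM of Rps27, which is 42.7% and 43.7%. In replicate 1 the listed length was 255 nt for Rps27, the same as its coding sequence, and 500 nt for Rps27l. With the copies of Rps27 added, chiefly Rps27rt, the share of Rps27l was 16.7% and 16.9%. In expected counts, which do not correct for length, the direction turned in these 3 pairs, with a log2 ratio of paralogue to partner of -0.40 for Rpl22l1, 0.97 for Rps27l and 0.013 for Rpl36al. Rpl7l1 was at 82.5 and 82.7 TPM, 5.0% and 5.1% of its sum with Rpl7.

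The remaining 3 paralogues are known for expression in few tissues. Rpl39l, known from testis, differs from Rpl39 at 23 of 156 coding bases, shown in capitals over the whole coding sequence.
Rpl39: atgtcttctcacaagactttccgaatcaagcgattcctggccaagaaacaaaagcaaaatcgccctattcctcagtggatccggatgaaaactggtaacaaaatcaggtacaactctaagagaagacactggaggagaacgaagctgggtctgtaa
Rpl39l: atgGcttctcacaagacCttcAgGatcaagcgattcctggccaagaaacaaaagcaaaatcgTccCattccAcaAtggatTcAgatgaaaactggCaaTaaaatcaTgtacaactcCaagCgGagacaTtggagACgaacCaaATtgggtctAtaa
Rpl39l had 6.51 TPM from 97 expected counts in replicate 1 and 4.14 TPM from 51 in replicate 2, beside 495 and 442 TPM of Rpl39. Rpl3l, known from heart and skeletal muscle, was listed at 0 in replicate 1 and had 0.15 TPM from 3 counts in replicate 2, beside 1122 and 1123 TPM of Rpl3. Rpl10l, known from testis, was listed at 0 in both, where a floor of 3 counts per library is worth 0.141 and 0.151 TPM. Against that floor Rpl10, at 738 and 685 TPM, was at least 5227-fold higher in replicate 1 and at least 4525-fold in replicate 2. Floors cover counting error only.

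**Figure D3:**
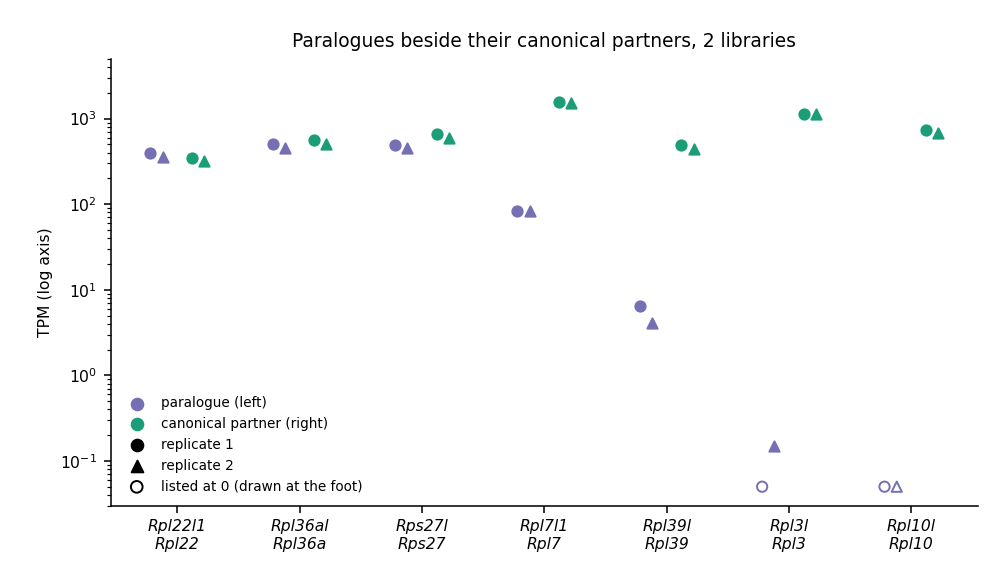
TPM on a log axis of each paralogue (purple) and its canonical partner (green), with circles for replicate 1 and triangles for replicate 2, and open symbols at the foot for values listed at 0. With all transcripts of a gene summed, Rpl22l1 lies above Rpl22 in each library. Rpl36al and Rps27l lie a little below their partners, and Rpl39l, Rpl3l and Rpl10l lie far below theirs.

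Members lie on 19 chromosomes, with 14 on chromosome 7 and 4 on X. The X-linked Rps4x had 780.2 and 765 TPM, and Rpl10, Rpl36a and Rpl39 are given above. Rpl3l lies 5890 bases from Rps2, a gene at 1329 and 1272 TPM.

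Messages typed protein_coding in the reference annotation held 90.7% and 90.6% of the members' TPM. Another 7.92% and 8.03% lay on transcripts typed otherwise (processed transcripts at 4.14% and 4.12%, retained introns at 3.18% and 3.25%, targets of nonsense-mediated decay at 0.60% and 0.65%), and the rest on transcripts with no entry. The protein_coding type led in 77 of 83 members with a value above 0, and 5 members had over 50% of their TPM on other types. For Rps20 the leading transcript was Rps20-201, typed as a retained intron, with 91.9% and 93.1% of the gene. For Rpl35 it was Rpl35-203, a processed transcript with 89.0% and 88.5%. For Rpl12 it was Rpl12-201, typed for nonsense-mediated decay, with 72.9% and 73.6%. For Rpl23 it was Rpl23-204 with 69.2% and 68.0%. For Rpl5, 54.0% and 59.9% lay on other types, and Rpl5-205, a retained intron with 38.0% and 45.5%, led by mean TPM. In replicate 1 the protein_coding Rpl5-201 was above it, at 40.6%. These types come from a later annotation release than that of the tables, matched by identifier. The percentages are of the gene's own row only. Near-identical rows held 93.8% and 93.2% of the summed TPM for Rpl5, 69.3% and 69.4% for Rpl12 and 46.8% and 49.1% for Rpl35. For Rps20 and Rpl23 they held under 5%. The share of Rpl29-201 was 57.7% in replicate 1 and 48.2% in replicate 2, and that of Rpl29-203 42.3% and 51.8%, so the order of these transcripts differed between the libraries.

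**Figure D4:**
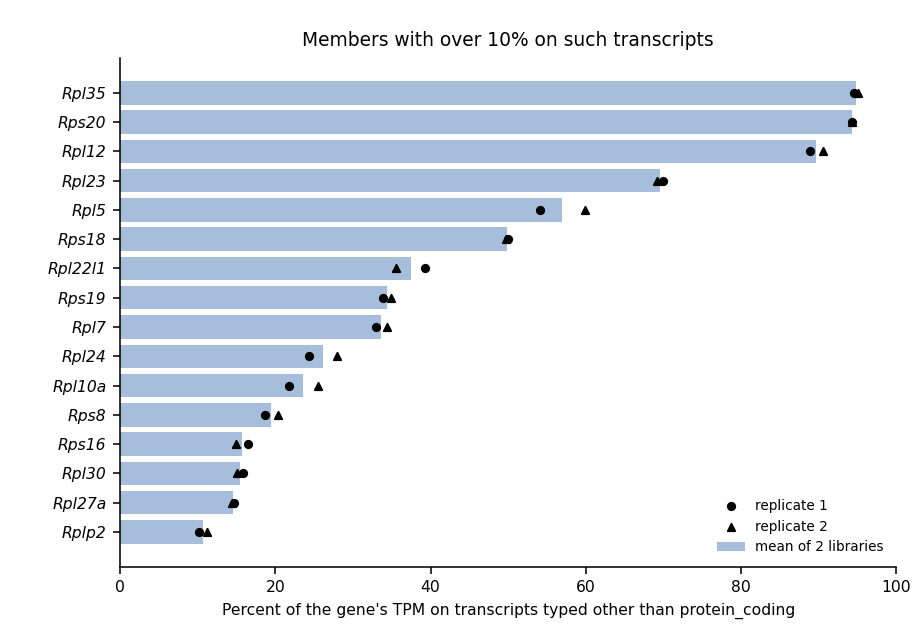
Percent of a gene's TPM on transcripts typed other than protein_coding, for the 16 members above 10%, with bars for the mean of 2 libraries, circles for replicate 1 and triangles for replicate 2. Rpl35, Rps20 and Rpl12 stand near the top of the scale, and for Rps18 the share is close to the midpoint in both libraries.

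To see how the annotated starts relate to the TOP motif, the first 20 bases of the leading transcripts were read from the reference. Of 9 canonical genes whose leading transcript begins with C and at least 4 further pyrimidines, 8 are shown, from the highest to the lowest transcript level, with the run in capitals.
Rpl32: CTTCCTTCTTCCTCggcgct
Rpl37a: CTCTTCggacttgggcttgg
Rpl36: CTTCCTgtcccggccgccat
Rpl4: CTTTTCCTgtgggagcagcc
Rps21: CCCTCCTgcccaatagtgct
Rpl30: CCTTTCTCgctccccggcca
Rps15a: CTCCCgaaagggggtgtgtg
Rpl37: CTCTTCCggtctctttggcc
Such a run stood at the first base in 9 of 76 canonical genes (11.8%) and in 288 of 12886 other protein-coding genes (2.23%) with a leading transcript at 1 TPM or more. In the RefSeq table of promoters (GRCm38.p6), 57 of the 77 canonical genes matched by symbol, and 13 (22.8%) had the run exactly at the annotated start, beside 800 of 26961 other genes (2.97%). Within 5 bases of the start it was 27 (47.4%) beside 5689 (21.1%). The motif searched was C followed by 4 letters that are each C or T, on the transcript's strand. A match says only that these letters stand at an annotated start. The highest member, Rpl41, begins as follows, with no run at its first base.
Rpl41: gacgacaccgagcacgccat

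Genes that act around the ribosome were read from fixed lists. Each of 34 ribosome biogenesis genes had 1 TPM or more in each library, and their median level was 45.6 TPM. Snu13, a protein of small nucleolar particles, had the highest mean, at 231 and 221 TPM. Nucleolin, encoded by Ncl, overlapped it at 217 and 226 TPM. Nop56 lay below both, at 191 and 195 TPM. Among 8 elongation factor rows Eef1a1 led at 4885 and 5066 TPM, and Eif5a had 1226 and 1190.2 TPM. The neuron and muscle form Eef1a2 was listed at 0. Of 10 other messages known to carry TOP motifs, Tpt1 was highest at 1026 and 972 TPM. The 10 genes listed as regulators of TOP messages ranged widely around a median of 33.8 TPM, with Cnbp highest at 821 and 802 TPM, then Tia1 at 115 and 141 TPM and Eif4ebp1 at 127 and 114 TPM. The 77 mitochondrial ribosomal protein genes, which serve the separate ribosome of mitochondria, had a median of 79.0 TPM and a maximum of 248 TPM, for Mrpl17.

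Replicate 2 was lower than replicate 1 in TPM for 75 of the 84 members. The median log2 ratio of replicate 2 to replicate 1, on log2(TPM + 0.1), was -0.07 over the 82 members at 1 TPM or more and 0.07 over 15307 annotated genes. It was below 0 in 91.5% of those members and 34.3% of those genes, shares that are given by length further on. A two-sided exact binomial test on counts with TMM scaling and Benjamini-Hochberg adjustment over all genes called 78 of 82 members lower in replicate 2 and 0 higher, beside 14.8% of all genes called lower and 12.7% called higher. At an unadjusted p under 0.05 the number higher was also 0. That test has 1 library on each side and covers counting error only, so it compares these libraries and not conditions. It also calls smaller differences in genes with more counts, so the shares are not alike. All genes include those with 10 counts in the sum, while Rpl5, the lowest canonical gene, had 1463 and 1348. The median log2 ratio of members in TMM-normalized counts was -0.15. By a rule that asks for a ratio of TMM-normalized counts of at least 5 to 4, 1 member was lower and 0 were higher, beside 14.2% and 13.6% of all genes. The exact test of edgeR, run at the dispersion common to all genes, called 0 of 82 members, beside 0.491% of all genes lower and 0.177% higher, and 1 member had an unadjusted p under 0.05. The dispersion of that test comes from the same 2 libraries it compares, so their typical difference counts as error, and its 0 calls do not show that the members are alike in both.

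Among members the largest falls in TPM were those of Rpl39l, at -0.64 on the log2 scale from few counts, Rpl27 at -0.21, Rpl22l1 at -0.19, Rpl38 at -0.18 and Rpl39 at -0.16. Rpl38, which is known to control translation of Hox messages in the developing skeleton, had 869 TPM in replicate 1 and 769 in replicate 2. At the other end stood Rpl5 at 0.04, Rps7 and Rplp2 at 0.03 and Rpl4 at 0.01. In TMM-normalized counts these 4 were also below 0, between -0.10 and -0.05.

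The difference varied with length. Members with an effective length (the number of start positions a read can have) under 500 nt had a median log2 ratio of -0.09 (33 genes), those from 500 to 1000 nt -0.06 (39 genes) and those from 1000 to 2000 nt -0.03 (9 genes). Other protein-coding genes at a mean of 100 TPM or more had medians of -0.09 (95 genes), -0.03 (343 genes) and 0.03 (541 genes) in the same classes, and 0.05 (340 genes) from 2000 nt. Across the 77 canonical genes the log2 ratio and log2 effective length had a Pearson r of 0.43 and a Spearman rho of 0.44, as a description. The part of length in the difference was not tested.

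**Figure D5:**
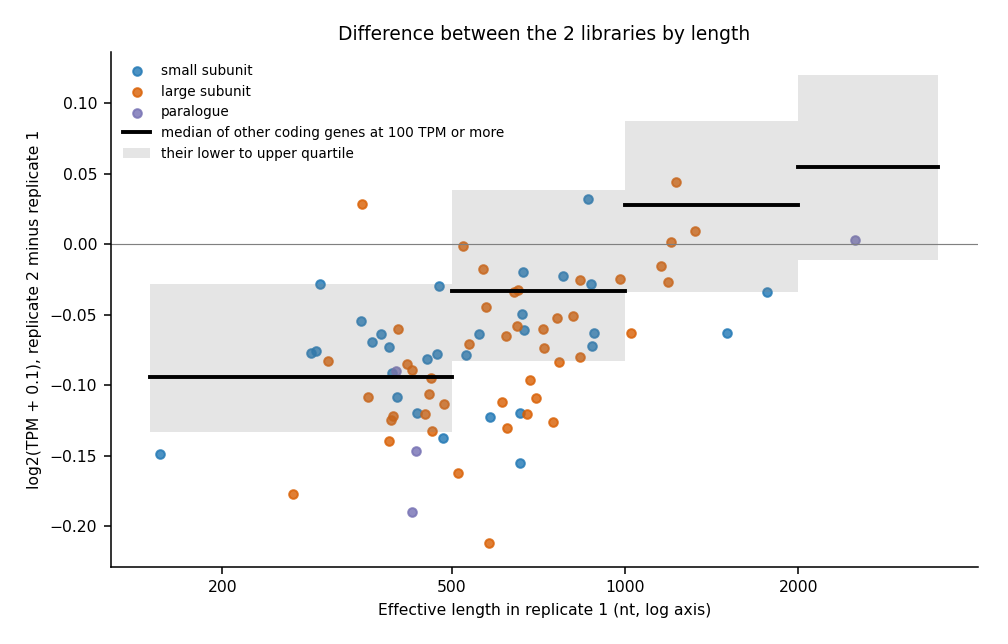
Log2 ratio of replicate 2 to replicate 1, on log2(TPM + 0.1), against effective length in nt on a log axis, for the members reported at 1 TPM or more (Rpl39l, at -0.64, is not drawn), with black lines for the median of other protein-coding genes at 100 TPM or more in each length class and grey bands from their lower to their upper quartile. Most members lie below 0, and the lines rise with length from -0.09 to 0.05.

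Markers of limb cell types were read in the same libraries. The limb mesenchyme markers Msx1, Prrx1, Prrx2, Pitx1, Hoxd13 and Tbx5 were all detected, summing to 359 TPM in replicate 1 and 456 in replicate 2. The red blood cell markers Hbb-bs, Hba-a1 and Alas2 summed to 9999 and 6484 TPM, and the muscle markers Actc1, Acta1 and Myog to 1850.5 and 1263 TPM. Cartilage markers summed to 885 and 904 TPM, with Col2a1 at 584 and 587, Col9a3 at 267 and 287 and Acan at 33.8 and 29.9 TPM. The 3 epidermis markers summed to 1025 and 899 TPM. Their median log2 ratio of replicate 2 to replicate 1 was -0.08, a smaller fall than that of the sum. The neighbouring organ markers Alb, Nppa and Sftpc were below 1 TPM in both libraries. In whole tissue, fewer cells of a type and less RNA per cell cannot be told apart, and the part of these cell types in the difference between the libraries was not tested.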

How the data were processed

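The authors deposited expected counts, TPM and FPKM per gene and transcript, with posterior mean TPM, the percent of a gene's TPM on each transcript, effective lengths and the signal bounds of credibility intervals, all as the file headers name them. Interval level, aligner and counter were not given in the sources used here. FPKM deposited by the authors served in an alternative. The build was mm10 with GENCODE M4, per the notes deposited with each sample. TPM sums include spike-ins and mitochondrial genes. Names and types came from GENCODE M21 on GRCm38 by identifier, and near-identical rows from blastn 2.17.0 of member coding sequences against the transcripts of other genes, each row given to its best member. Log2 ratios used a pseudocount of 0.1 TPM. Libraries were compared by a two-sided exact binomial test on rounded counts scaled by TMM, on genes whose summed counts reached 10 (threshold 0.05), and by the exact test of edgeR 4.0.16; DESeq2 1.42.0 gave size factors. Python 3.11.15, scipy 1.17.1 and R 4.3.3 were used. The tests were checked on simulated data.

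Members, gene lists and tests were chosen with earlier results of these data known. Named in full were the 8 highest and 8 lowest canonical genes, the P-stalk genes, Rps27a, all paralogues and their partners, X-linked members, the 5 members of largest library ratio each way and the highest of other lists; copies, neighbours, transcripts and a few other genes were named after their values were seen. A few members and other genes are counted in sums and tests but not reported here by name. Alternatives covered pseudocounts, filters, scalings, units, each library alone and near-identical rows. The labels do not settle whether the libraries came from separate pups, so SDs and p-values measure only the spread between these samples, which may be technical.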

Additional observations from a re-analysis of the deposited data

How the results depend on the processing

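No paired analysis was possible because there is only 1 group. Depth limits how low a level can be read for Rpl3l and Rpl10l. Shared sequence limits how surely the own-row levels of genes with copies are known, and how reads were divided between them was not tested. Without mitochondrial genes and spike-ins the members held 86622 TPM and 3.14% of counts. With near-identical rows added, alternatives chosen after seeing the data, the members held 95383 TPM and 3.46% of counts, the log2 ratio of highest to lowest canonical gene fell from 6.12 to 3.57 (3.57 under the stricter identity of 98%), the log2 ratio of large to small medians was -0.30 (also -0.30 under the stricter identity), Rps27l over Rps27 moved from -0.40 to -2.31, Rpl36al over Rpl36a was -0.16 and Rpl10l over Rpl10 -13.67. Counts in place of TPM, which do not correct for length, reversed Rps27l over Rps27 to 0.97, Rpl22l1 over Rpl22 to -0.40 and Rpl36al over Rpl36a to 0.013, and gave -2.28 for Rpl7l1 over Rpl7, -15.72 for Rpl3l over Rpl3 and -16.75 for Rpl10l over Rpl10. These last pairs, at or near 0, also moved with pseudocounts of 0.01 (-14.78 and -16.12) and 1 (-10.03 and -9.48) and with posterior mean TPM (-11.71 and -12.18), beside -12.79 and -12.80 in the main setting. Rows typed as pseudogenes and named for a member held 8.78% of ribosomal protein TPM, 8.69% in posterior mean TPM, 6.15% in counts and 19.6% when found by sequence. Transcripts typed other than protein_coding held 6.13% in counts. Members lower in replicate 2 numbered 66 to 80 under other scalings and filters, 81 with near-identical rows added, 1 by the fold rule and 0 by edgeR's exact test, and the median log2 ratio of members was -0.15 in TMM-normalized counts. Beside the 66, with spike-in scaling, 1871 of 19153 genes were called lower and 4167 higher. Beside the 80, with DESeq2 size factors, 3043 of 19153 were lower and 2291 higher. Beside the 81, 2791 of 18917 were lower and 2429 higher. The shares of all genes by the fold rule and by edgeR's test are given above. TOP starts within 5 bases numbered 27. Over single libraries, the members held 72186 to 75901 TPM, and Rps27l over Rps27 was -0.42 to -0.37. The causes of these shifts were not tested.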
